A study of Mus musculus with 8 samples.

Results

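Cyclosporin A (CSA) was compared with its solvent dimethyl sulfoxide (DMSO) at day 3 of reprogramming in mouse cells. The comparison rests on 4 of the 8 arrays of the series, 2 labelled DMSO and 2 labelled CSA at day 3, and was read across 12529 genes. Reprogramming cells of C57BL/6 background came from a secondary OSKM system, in which doxycycline switches on integrated copies of Oct4, Sox2, Klf4 and Myc. All groups shared doxycycline, written as 2 mg per ml in the labels, and mouse embryonic stem cell medium with 15% fetal bovine serum and leukemia inhibitory factor at 100 units per ml. The treated groups also received CSA, written as 10 mM, and the groups at day 6 repeat both treatments with 2 arrays each. Both doses are given as the labels write them, and whether micro units were meant is not settled in the sources used here. The series' text calls the arrays of a group biological repeats. Whether the starting cells were 1 clone or a mixture, and which cell type they were, is not given in the sources used here. What the comparison asks is how expression across genes differs between CSA and DMSO. CSA is an inhibitor of calcineurin-NFAT signalling, whose activity was not measured on these arrays.

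Cyclosporin A enters cells, binds cyclophilins, and in that complex blocks calcineurin, the calcium-dependent phosphatase that lets NFAT transcription factors enter the nucleus. In the first days of reprogramming, fibroblast-like cells divide fast, lose mesenchymal traits and gain epithelial ones before the pluripotency network is switched on. Cells short of amino acids or burdened with unfolded proteins answer with the transcription factor ATF4, which raises genes of amino acid supply, and with the unfolded protein response, which raises the folding and disposal machinery of the endoplasmic reticulum (ER).

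The signals are log2 values of Affymetrix 3' expression arrays, and a gene is read from its brightest tested probe set. The median signal over tested probe sets was 8.22 to 8.24 on the day 3 arrays, and their correlation was 0.968 and 0.974 within a treatment and 0.962 to 0.963 between treatments. The ± after a value is a moderated standard error from limma, with n = 2 arrays per group, so the number of arrays limits every comparison. A gene passed at an adjusted p under 0.05.

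Markers of other cell types were read first. Of 9 fibroblast markers on the array all were tested, with a summed log2 signal of 14.3 to 14.4 in DMSO and 14.3 with CSA. Most of it came from Dcn, a matrix proteoglycan, at 14.05 and 13.94 in DMSO and 13.76 and 13.80 with CSA, while the receptor Pdgfrb, which defines mesenchymal cells, was near the filter on tested signals at 5.61 and 5.59 in DMSO and 5.40 and 5.73 with CSA. Of 10 pluripotency markers 5 were bright enough to test and none passed by limma, with 2 at an unadjusted p under 0.05. Nanog was dim, at 3.34 and 5.39 in DMSO and 1.78 and 1.24 with CSA. Of 5 macrophage and 2 endothelial markers tested limma called 0, also at an unadjusted p under 0.05. The signals of all 9 macrophage markers on the array summed to 8.93 to 9.16 in DMSO and 8.76 to 8.80 with CSA. Those of all 6 endothelial markers summed to 10.6 in DMSO and 10.5 to 10.6 with CSA. Most of the endothelial sum came from Tek, at 10.43 and 10.44 in DMSO and 10.55 and 10.30 with CSA. No marker was at 0 on all day 3 arrays. The fibroblast markers that passed were 1 that rose and 2 that fell. Of 4 neural markers 2 were tested and 1 fell: Mbp, the myelin basic protein gene, was at 10.17 and 10.32 in DMSO and 9.56 and 9.49 with CSA (-0.72 ± 0.11, adjusted p = 0.00278, or 0.0565 without an intensity trend in the variance prior), and the summed neural signal was 10.4 in DMSO and 9.82 to 9.83 with CSA. Of 2 skeletal muscle and 1 lymphoid markers tested none passed by limma, with 0 and 1 at an unadjusted p under 0.05, and no erythroid marker was bright enough to test. The part of these markers in the results was not tested.

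At day 3, 1587 genes (12.7% of those tested) differed between CSA and DMSO. CSA raised 895 genes (7.14%) and lowered 692 (5.52%), and the median difference over all genes was -0.004. Genes of amino acid supply, of the ATF4 response, of ER protein folding and of lysosomes rose in part of their lists, as did desmosome and junction genes. Genes of DNA replication and mitosis fell. Most differences were small: 488 of the genes that rose and 407 of those that fell did so by less than 1.5-fold, and 123 and 72 changed at least 2-fold. Without 1 of the CSA arrays at day 3 fewer genes passed, 705 without replicate 1 and 643 without replicate 2, and without the intensity trend in the variance prior 274 did. That trend lets the spread assumed for a gene follow its signal, and is called the trend from here on. Among gene lists with 1 to 6 genes that passed in a direction, 48 of 56 such counts moved by more than 1.5 times when 1 day 3 array was left out, against 4 of 10 among larger counts. Where a list is said to hold no gene that rose or fell, limma's count at an unadjusted p under 0.05 in that direction was 0 unless it is given.

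**Figure D1:**
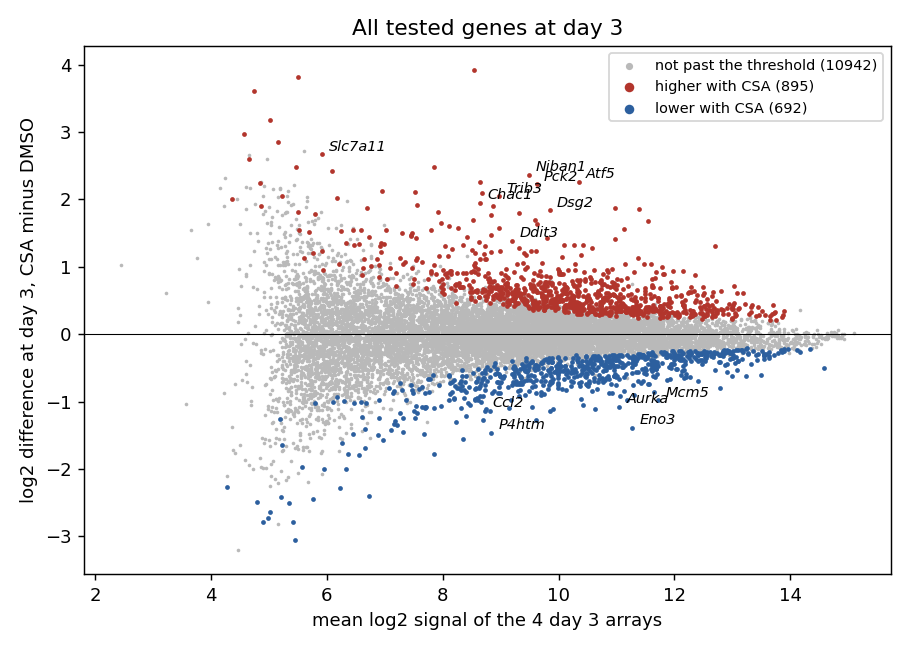
Each point is 1 of 12529 genes, with the mean log2 signal of the 4 day 3 arrays on the horizontal axis and the log2 difference of CSA minus DMSO on the vertical axis. Red points are the 895 genes that rose and blue points the 692 that fell, and the spread of grey points widens toward dim signals.

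**Figure D2:**
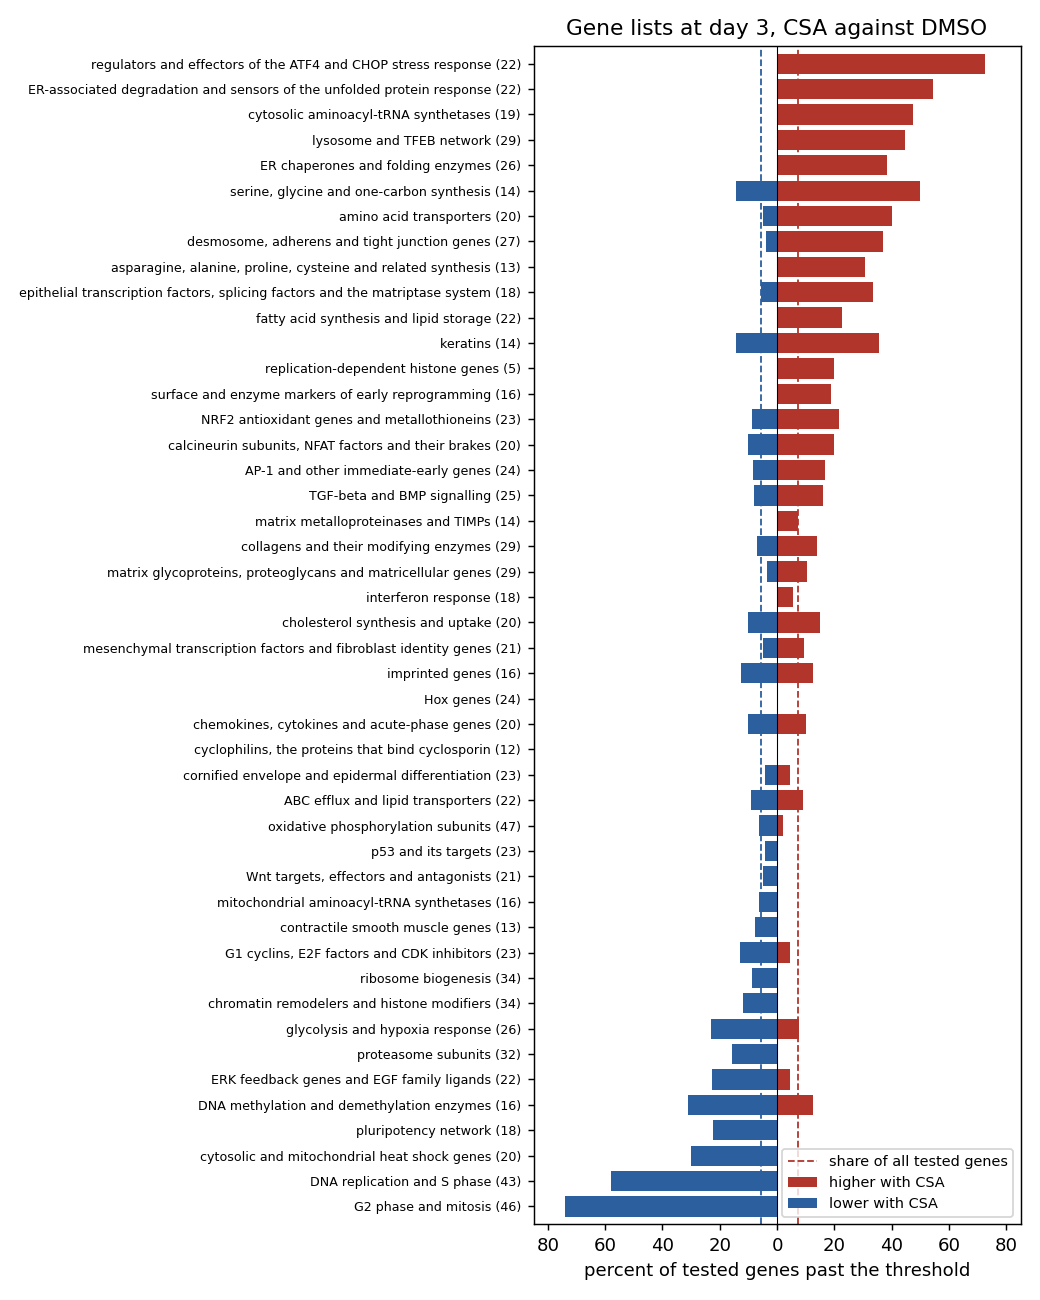
For each gene list, with its number of tested genes in brackets, the bars give the percent that passed higher with CSA (red, right) or lower (blue, left), and dashed lines mark the shares of all tested genes, 7.14% and 5.52%. The ATF4 and CHOP list reaches 72.7% on the right, and the G2 phase and mitosis list 73.9% on the left.

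The ATF4 and CHOP stress response held the largest share of genes that rose. Of 22 tested regulators and effectors 16 rose (72.7%, against 7.14% of all genes) and none fell, with a median of 0.64 where all genes had -0.004. Atf5, a bZIP factor induced by ATF4, was at 9.14 and 9.29 in DMSO and 11.44 and 11.51 with CSA. Trib3, a pseudokinase that restrains AKT and ATF4, was at 8.20 and 7.71 in DMSO and 10.16 and 9.84 with CSA. Chac1, a glutathione-degrading enzyme downstream of ATF4, was at 7.50 and 7.84 in DMSO and 9.75 and 9.48 with CSA. In all 3 genes both CSA arrays lay above both DMSO arrays, by 4.8-fold, 4.13-fold and 3.85-fold in the means. The differences were 2.26 ± 0.10 (adjusted p = 9.76e-07), 2.05 ± 0.20 (adjusted p = 0.000134) and 1.95 ± 0.17 (adjusted p = 8.79e-05).

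Other members rose with them. The CHOP gene Ddit3 was at 8.28 and 8.72 in DMSO and 9.89 and 9.90 with CSA and rose by 1.39 ± 0.15 (adjusted p = 0.000289), and the chromatin-bound stress protein Nupr1, at 12.07 and 12.03 in DMSO and 13.42 and 13.31 with CSA, rose by 1.32 ± 0.07 (adjusted p = 1.62e-06). The AP-1 partner Jdp2 rose by 1.28 ± 0.13, the secreted glycoprotein Stc2 by 2.12 ± 0.26, the lipoprotein receptor Vldlr by 1.60 ± 0.18 and the growth arrest gene Gadd45a by 1.44 ± 0.15. Atf4 itself, whose protein is controlled mainly at translation, was at 12.01 and 11.94 in DMSO and 12.65 and 12.55 with CSA and rose by 0.62 ± 0.07 (adjusted p = 0.000404), and its dimer partner Cebpg rose by 0.68 ± 0.11. All arrays of these genes were separated by treatment. Without the intensity trend 9 of the 16 passed, and the calls of Atf4 and Cebpg ended; the call of Ddit3 ended with the mean of its probe sets (adjusted p = 0.0974).

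The promoters of 20 of the 22 tested members were found in RefSeq (build GRCm38.p6), as the 250 bases before and 50 after the gene's start. The C/EBP-ATF element TGATGNAA was searched on both strands, and a gene was counted if any of its promoters held it. It was present in 6 of these 20 genes (30.0%) and in 5 of 12 tested cytosolic tRNA synthetase genes (41.7%). In the other lists that rose in part it was less frequent. It was in 0 of 13 serine, glycine and one-carbon genes, 2 of 11 genes of other amino acid synthesis and 3 of 14 amino acid transporters. It was also in 1 of 22 ER chaperone genes, 1 of 19 genes of ER-associated degradation and 2 of 24 lysosomal genes. Of all 10130 tested genes with a promoter 2.79% held it, and so did 3.97% of all 32851 promoters. Those of Chac1 (chr2:119350992-119351291, + strand), Trib3 (chr2:152344011-152344310, - strand) and the cystine transporter Slc7a11 (chr3:50443564-50443863, - strand) are printed because these genes rose and hold the letters, which stand in capitals. A match of letters is a description of the sequence and not a measured binding site.
Chac1: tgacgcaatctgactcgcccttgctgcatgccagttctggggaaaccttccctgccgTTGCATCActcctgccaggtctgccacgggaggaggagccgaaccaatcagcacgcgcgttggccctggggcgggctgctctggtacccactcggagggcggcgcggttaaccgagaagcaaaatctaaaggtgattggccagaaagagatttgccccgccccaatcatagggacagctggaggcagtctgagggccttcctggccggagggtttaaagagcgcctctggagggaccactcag
Trib3: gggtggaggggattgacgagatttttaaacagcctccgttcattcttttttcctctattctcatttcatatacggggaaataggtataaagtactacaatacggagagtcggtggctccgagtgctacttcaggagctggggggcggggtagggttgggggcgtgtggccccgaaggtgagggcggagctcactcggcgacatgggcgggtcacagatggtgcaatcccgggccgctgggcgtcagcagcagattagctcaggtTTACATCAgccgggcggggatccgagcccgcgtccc
Slc7a11: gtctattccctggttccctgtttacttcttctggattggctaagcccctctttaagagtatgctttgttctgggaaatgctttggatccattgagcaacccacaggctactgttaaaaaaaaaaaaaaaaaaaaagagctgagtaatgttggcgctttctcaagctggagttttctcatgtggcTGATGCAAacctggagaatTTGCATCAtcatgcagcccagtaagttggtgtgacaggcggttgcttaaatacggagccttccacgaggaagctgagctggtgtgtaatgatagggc
The Slc7a11 promoter holds 2 copies in opposite orientation, and the other promoters 1 each.

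Amino acid synthesis rose in part. In the list of serine, glycine and one-carbon synthesis 7 of 14 genes rose (50%, against 7.14% of all genes) and 2 fell (14.3%, against 5.52%). Aldh1l2, which oxidises formyl-tetrahydrofolate in mitochondria, was at 6.57 and 6.59 in DMSO and 10.56 and 10.44 with CSA, a 15.1-fold rise (adjusted p = 1.86e-07), the largest of all tested genes. Psph, the phosphatase of the last step of serine synthesis, was at 10.77 and 10.63 in DMSO and 12.41 and 12.36 with CSA and rose by 1.69 ± 0.09, and Mthfd2, the mitochondrial folate enzyme of proliferating cells, rose by 0.92 ± 0.08. Psat1 and Phgdh, the preceding enzymes of serine synthesis, rose by 0.45 ± 0.06 and 0.39 ± 0.06. The cytosolic folate enzyme Mthfd1 went the other way, at 11.59 and 11.51 in DMSO and 11.06 and 10.89 with CSA (-0.57 ± 0.08, adjusted p = 0.00141). Of 13 genes of other amino acid synthesis 4 rose and none fell (4 lower at an unadjusted p under 0.05). The alanine transaminase Gpt2 was at 10.02 and 10.05 in DMSO and 11.93 and 11.89 with CSA and rose by 1.87 ± 0.10 (adjusted p = 1.62e-06), Aldh18a1 of proline synthesis by 0.71 ± 0.08 and Cth of cysteine synthesis by 0.61 ± 0.06, and both treatments were separated in all 3. Asparagine synthetase Asns, a bright gene at 13.38 and 13.26 in DMSO and 13.64 and 13.59 with CSA, rose by 0.29 ± 0.06, a call lost without DMSO replicate 2 (adjusted p = 0.0972) and without CSA replicate 1 or 2 (adjusted p = 0.127 or 0.0771). Without the trend 3 of the 7 serine and one-carbon genes passed, and the calls of Psat1, Phgdh, Mthfd1 and Asns ended.

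Amino acid transporters and tRNA synthetases rose as well. Of 20 transporters 8 rose and 1 fell. Slc7a3, which carries cationic amino acids, was at 10.37 and 10.56 in DMSO and 12.22 and 12.42 with CSA and rose by 1.85 ± 0.10 (adjusted p = 2.19e-06). The leucine transporter Slc7a5, at 10.97 and 10.93 in DMSO and 11.99 and 11.997 with CSA, rose by 1.04 ± 0.11, and its heavy chain Slc3a2 by 0.55 ± 0.08. The glycine transporter Slc6a9 rose by 1.06 ± 0.14 and the arginine transporter Slc7a1 by 0.58 ± 0.07. Slc7a11, which exchanges cystine for glutamate, was dim in DMSO, at 5.01 and 4.13 in DMSO and 7.33 and 7.16 with CSA, and rose by 2.67 ± 0.48 (adjusted p = 0.00563), or by 2.24 when signals under a log2 of 5 were raised to 5. Its DMSO signals lie under the 5.37 that probe sets had to reach on average to be tested, so that the size of the rise is uncertain, and it was, a call lost without CSA replicate 1 (adjusted p = 0.0573). Of 19 cytosolic aminoacyl-tRNA synthetases, which load tRNAs with amino acids, 9 rose (47.4%) and none fell, with a median of 0.26. Aars for alanine was at 10.63 and 10.98 in DMSO and 12.03 and 11.85 with CSA and rose by 1.14 ± 0.12 (adjusted p = 0.00028), and Cars, Tars, Lars, Nars and Eprs rose by 0.80, 0.70, 0.63, 0.57 and 0.51. Of their 16 mitochondrial counterparts none rose by limma and 1 fell, with 5 at an unadjusted p under 0.05 in either direction and a median of -0.13. Without the trend 4 transporters and 4 cytosolic synthetases passed, and the calls of Slc3a2, Slc7a1, Nars and Eprs ended; that of Slc7a1 also ended with the mean of its probe sets (adjusted p = 0.112). Leaving out CSA replicate 1 left 5 of the 8 transporters that rose.

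**Figure D3:**
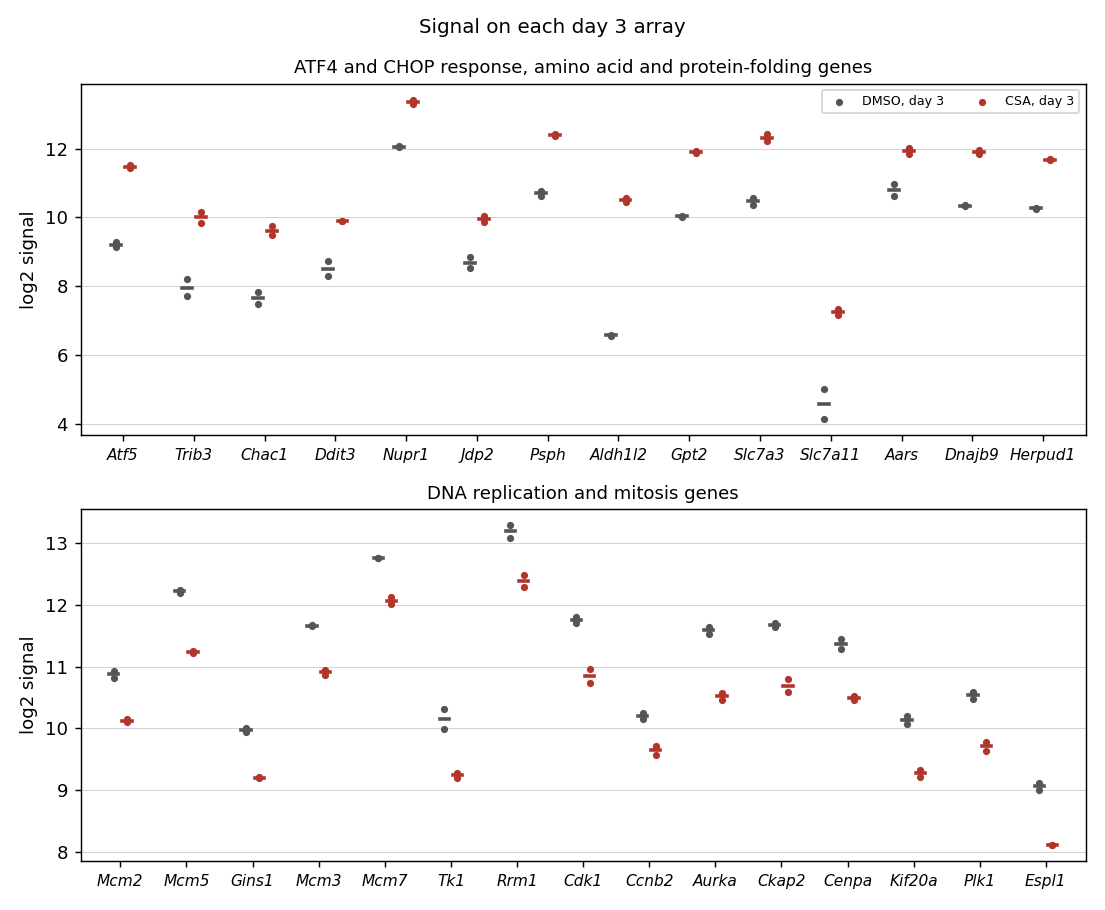
Log2 signal of each of the 4 day 3 arrays for genes of the stress and amino acid lists (top) and of DNA replication and mitosis (bottom), with grey points for DMSO, red points for CSA and a bar at each mean of 2. The CSA points lie above the DMSO points for every gene of the top panel and below them for every gene of the bottom panel. The genes shown were picked by hand.

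The folding machinery of the ER rose. Of 26 chaperones and folding enzymes 10 rose (38.5%) and none fell, with a median of 0.29, and of 22 genes of ER-associated degradation and stress sensing 12 rose (54.5%) and none fell, with a median of 0.43. Dnajb9, a co-chaperone that restrains the sensor IRE1, was at 10.37 and 10.32 in DMSO and 11.84 and 11.96 with CSA and rose by 1.56 ± 0.08 (adjusted p = 1.65e-06). Ero1a, the oxidase that makes disulfide bonds, was at 9.98 and 9.92 in DMSO and 11.19 and 11.26 with CSA and rose by 1.27 ± 0.09 (adjusted p = 1.42e-05). The chaperone Hspa13 rose by 0.66 ± 0.08, the PERK-branch co-chaperone Dnajc3 by 0.63 ± 0.09, Hyou1 by 0.54 ± 0.08 and the reductase Dnajc10 by 0.52 ± 0.08. The central ER chaperone BiP, Hspa5, did not pass, at 14.15 and 13.82 in DMSO and 14.39 and 14.29 with CSA (0.36 ± 0.11, adjusted p = 0.0656), with no overlap between treatments.

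In the degradation and sensor list, Herpud1, a scaffold of the retrotranslocation complex, was at 10.27 and 10.25 in DMSO and 11.67 and 11.69 with CSA and rose by 1.42 ± 0.08 (adjusted p = 2.72e-06). The transcription factor Xbp1 was at 12.08 and 12.21 in DMSO and 12.81 and 12.87 with CSA and rose by 0.70 ± 0.07, the stress sensor Atf6, at 9.10 and 9.32 in DMSO and 10.13 and 10.17 with CSA, by 0.94 ± 0.11, and its relative Creb3l2 by 0.97 ± 0.12. Sel1l and Derl1, which pass misfolded proteins to the cytosol, rose by 0.77 ± 0.10 and 0.53 ± 0.07. Whether the Xbp1 probe set tells spliced from unspliced transcripts was not checked. Without the trend 3 chaperones and 4 degradation genes passed, and the calls of Dnajc3, Hyou1, Dnajc10, Sel1l and Derl1 ended. Without CSA replicate 1 or replicate 2, 7 degradation genes passed. Probe sets with names ending in _a_at, _s_at or _x_at are called ambiguous. With these left out, Xbp1 and Hyou1 were at 0.32 and 0.20 and did not pass. The call of Sel1l ended with the mean of its probe sets (adjusted p = 0.0502).

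The ER stress element, CCAAT and CCACG separated by 9 bases, was searched on both strands in the promoters of 22 tested chaperone genes. It was found in 8 of these genes (36.4%), of which 3 rose, and in 0.148% of all 10130 tested genes with a promoter. Of 19 tested genes of ER-associated degradation and stress sensing with a promoter, 2 held it (10.5%). The promoter of Dnajc3 (chr14:118937682-118937981, + strand) is printed with both blocks of letters in capitals.
Dnajc3: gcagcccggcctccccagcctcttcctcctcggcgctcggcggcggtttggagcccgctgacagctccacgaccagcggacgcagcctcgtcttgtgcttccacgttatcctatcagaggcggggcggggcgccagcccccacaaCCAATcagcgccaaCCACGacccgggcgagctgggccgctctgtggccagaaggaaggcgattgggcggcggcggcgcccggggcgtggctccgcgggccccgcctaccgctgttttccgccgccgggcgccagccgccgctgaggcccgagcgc

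Genes of DNA replication fell. Of 43 tested genes 25 fell (58.1%, against 5.52% of all genes) and none rose, and the difference was below 0 in all 43, with a median of -0.53. The replicative helicase subunits fell together. Mcm5 was at 12.24 and 12.19 in DMSO and 11.25 and 11.22 with CSA (-0.98 ± 0.07, adjusted p = 3.04e-05), Mcm3 at 11.65 and 11.67 in DMSO and 10.94 and 10.87 with CSA (-0.75 ± 0.08) and Mcm7 at 12.75 and 12.76 in DMSO and 12.13 and 12.004 with CSA (-0.69 ± 0.07). The DMSO arrays lay above the CSA arrays in each, and Mcm2, Mcm4 and Mcm6 differed by -0.75, -0.67 and -0.54. Rrm1, a subunit of ribonucleotide reductase, was at 13.28 and 13.09 in DMSO and 12.48 and 12.28 with CSA (-0.81 ± 0.09), and Dut, which keeps uracil out of DNA, at 11.76 and 11.79 in DMSO and 11.02 and 11.09 with CSA (-0.72 ± 0.07). Gins1, a part of the active replicative helicase, changed by -0.77 ± 0.11, the primase subunit Prim1 by -0.70 ± 0.09, the clamp loader Rfc5 by -0.72 ± 0.09 and thymidine kinase Tk1 by -0.91 ± 0.15. In bulk RNA, fewer cells in a phase and less RNA per cell cannot be told apart. Without the trend 10 of the 25 passed, and the calls of Mcm6, Rrm1 and Tk1 ended. Dut was at -0.37 and did not pass when ambiguous probe sets were left out.

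Genes of the G2 phase and mitosis fell in a larger share of the list. Of 46 tested genes 34 fell (73.9%) and none rose, with a median of -0.61. The mitotic kinase Aurka was at 11.65 and 11.53 in DMSO and 10.57 and 10.46 with CSA (-1.07 ± 0.09, adjusted p = 8.02e-05), the largest fall of the list. Cdk1, the kinase that drives entry into mitosis, was at 11.71 and 11.81 in DMSO and 10.73 and 10.97 with CSA (-0.91 ± 0.09), and the spindle protein Ckap2 at 11.70 and 11.63 in DMSO and 10.80 and 10.58 with CSA (-0.97 ± 0.10). Signals were lower on both CSA arrays in all 3. The centromeric histone Cenpa was at 11.28 and 11.44 in DMSO and 10.52 and 10.45 with CSA (-0.87 ± 0.09), the kinase Plk1 at 10.48 and 10.59 in DMSO and 9.78 and 9.64 with CSA (-0.82 ± 0.10) and the survivin gene Birc5 at 11.68 and 11.78 in DMSO and 11.02 and 11.04 with CSA (-0.69 ± 0.08). The motor proteins Kif11, Kif20a and Kif23 changed by -0.84, -0.85 and -0.80, and separase Espl1 by -0.95. Without the trend 8 of the 34 passed, and the calls of Kif20a, Kif23 and Espl1 ended. Cenpa was at -0.63 and did not pass when ambiguous probe sets were left out.

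The E2F element TTTNGCGC was present on either strand in 11 of 36 tested replication genes (30.6%) and in 2.73% of all 10130 tested genes with a promoter. The cell cycle homology region TTTGAA was present in 28 of 38 tested mitosis genes (73.7%) and in 14.2% of those 10130. CCAAT was present in 29 of the 38 (76.3%) and in 42.6% of the 10130. The promoters of Mcm6 (chr1:128359656-128359955, - strand, with E2F elements in capitals, of which 2 overlap), Cdk1 (chr10:69352863-69353162, - strand) and Aurka (chr2:172370521-172370820, - strand), the last ones with TTTGAA and CCAAT of either strand in capitals, show these letters in genes that fell.
Mcm6: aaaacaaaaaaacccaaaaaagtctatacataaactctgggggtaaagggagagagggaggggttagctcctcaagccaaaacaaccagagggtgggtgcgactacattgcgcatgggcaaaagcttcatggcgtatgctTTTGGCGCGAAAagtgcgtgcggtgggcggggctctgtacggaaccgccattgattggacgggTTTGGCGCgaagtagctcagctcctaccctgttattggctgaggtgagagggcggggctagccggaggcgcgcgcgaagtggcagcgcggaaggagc
Cdk1: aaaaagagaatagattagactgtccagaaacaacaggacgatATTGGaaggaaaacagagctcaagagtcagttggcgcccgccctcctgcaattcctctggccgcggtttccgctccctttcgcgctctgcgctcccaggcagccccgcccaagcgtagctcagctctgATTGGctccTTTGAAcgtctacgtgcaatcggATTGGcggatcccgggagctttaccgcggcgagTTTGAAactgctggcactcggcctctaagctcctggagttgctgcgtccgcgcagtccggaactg
Aurka: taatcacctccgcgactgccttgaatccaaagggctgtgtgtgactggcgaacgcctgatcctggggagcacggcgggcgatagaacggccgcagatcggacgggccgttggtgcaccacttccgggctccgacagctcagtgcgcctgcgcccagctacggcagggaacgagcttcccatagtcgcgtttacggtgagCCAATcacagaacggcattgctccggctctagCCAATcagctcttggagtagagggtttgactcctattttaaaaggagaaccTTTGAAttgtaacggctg

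Regulators of the G1 phase were mostly lower, with few past the threshold. Of 23 tested G1 cyclins, E2F factors and CDK inhibitors 1 rose and 3 fell (13.0%), 19 differences were below 0 and the median was -0.29, with 11 lower and 2 higher at an unadjusted p under 0.05. The CDK inhibitor Cdkn2b was at 9.44 and 9.41 in DMSO and 10.01 and 9.97 with CSA and rose by 0.57 ± 0.09 (adjusted p = 0.0037), and the cyclin Ccnd3 was at 11.01 and 11.22 in DMSO and 10.52 and 10.33 with CSA (-0.69 ± 0.11, adjusted p = 0.00265). The other 2 falls were the CDK inhibitors Cdkn2a, at -0.79 ± 0.19 (adjusted p = 0.0203), and Cdkn2d, at -0.51 ± 0.14 (adjusted p = 0.0446). Both calls ended with the 4 arrays of day 3 alone, that of Cdkn2d also without a filter on low signals and without either DMSO array of day 6. Leaving out arrays of day 3, the call of Cdkn2a ended without DMSO replicate 1 (adjusted p = 0.101) and without CSA replicate 2 (adjusted p = 0.134) and that of Cdkn2d without DMSO replicate 1 (adjusted p = 0.213) and without CSA replicate 2 (adjusted p = 0.29). Cdkn1a, the p21 gene induced by p53, was bright and overlapped between treatments, at 13.60 and 13.49 in DMSO and 13.51 and 13.53 with CSA (-0.02 ± 0.06, adjusted p = 0.88). The main cyclin D gene Ccnd1 was at 14.14 and 14.04 in DMSO and 14.02 and 14.002 with CSA (adjusted p = 0.55). E2f1 was at 8.42 and 8.10 in DMSO and 7.48 and 7.59 with CSA (-0.73 ± 0.24) and did not pass (adjusted p = 0.091). Of 23 genes of p53 and its targets none rose by limma and 1 fell, with 2 higher and 3 lower at an unadjusted p under 0.05, and their median was -0.02. Without the trend none of the 3 falls held, the call of Cdkn2b ended, and that of Ccnd3 also ended with the mean of its probe sets (adjusted p = 0.322).

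Genes of DNA methylation went both ways, and the few chromatin genes that passed fell. Of 16 genes of DNA methylation and demethylation 2 rose (12.5%, against 7.14% of all genes) and 5 fell (31.25%, against 5.52%), with a median of 0.03. The rises were those of Gadd45a and of the 5-methylcytosine oxidase Tet2, at 0.40 ± 0.09 (adjusted p = 0.0163), the latter call lost without DMSO replicate 2 (adjusted p = 0.089) and without CSA replicate 1 or 2 (adjusted p = 0.0922 or 0.102) and without the trend. The de novo methyltransferase Dnmt3b was at 10.06 and 10.03 in DMSO and 9.18 and 9.17 with CSA (-0.87 ± 0.13, adjusted p = 0.0018), and the stress gene Gadd45b at 10.47 and 10.38 in DMSO and 9.72 and 9.79 with CSA (-0.66 ± 0.10). The chromatin remodeler Hells, which serves DNA methylation at repeats, was at 10.72 and 10.71 in DMSO and 9.93 and 10.06 with CSA (-0.73 ± 0.09, adjusted p = 0.000729). It was 1 of 4 genes that fell among 34 chromatin remodelers and histone modifiers, of which none rose (3 higher at an unadjusted p under 0.05). Leaving out each day 3 array in turn left 2 to 3 falls in each of these lists, and without the trend 2 methylation genes and 1 chromatin gene fell.

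Lysosomal genes rose. Of 29 tested genes of the lysosome and of the TFEB network, which controls its biogenesis, 13 rose (44.8%) and none fell, with a median of 0.28. The collagen-degrading cathepsin Ctsk was at 9.76 and 9.75 in DMSO and 10.996 and 11.16 with CSA and rose by 1.32 ± 0.10 (adjusted p = 2.55e-05). The transmembrane glycoprotein Gpnmb was at 7.48 and 7.28 in DMSO and 8.75 and 8.64 with CSA and rose by 1.31 ± 0.16 (adjusted p = 0.000618). Hexa, a subunit of beta-hexosaminidase, was at 11.30 and 11.27 in DMSO and 12.29 and 12.28 with CSA and rose by 1.004 ± 0.08 (adjusted p = 4.56e-05), and the autophagy receptor Sqstm1 by 0.73 ± 0.07. The membrane protein Lamp2 rose by 0.52 ± 0.09. Gpnmb and Ctsk are also genes of macrophages and osteoclasts. Of the 9 macrophage markers on the array 5 were bright enough to test and none of these passed. The summed log2 signal of all 9 was 8.93 to 9.16 in DMSO and 8.76 to 8.80 with CSA. Without the trend 4 of the 13 passed, the call of Lamp2 among those that ended, and 5 and 7 passed without CSA replicate 1 and 2. Sqstm1 was at 0.01 and did not pass when ambiguous probe sets were left out.

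Junction genes of epithelial cells rose at day 3. Of 27 tested genes of desmosomes, adherens and tight junctions 10 rose (37.0%) and 1 fell, with a median of 0.38. The desmosomal cadherin Dsg2 was at 8.91 and 8.94 in DMSO and 10.84 and 10.69 with CSA and rose by 1.84 ± 0.13 (adjusted p = 1.66e-05). Its partner Dsc2 was at 9.08 and 8.92 in DMSO and 10.23 and 10.24 with CSA and rose by 1.23 ± 0.12 (adjusted p = 0.000133). On the DMSO arrays of day 6 the means were 10.99 and 10.70, so that the signals with CSA at day 3 lay closer to the control level of day 6 than to that of day 3. The plakophilin Pkp1 rose by 0.50 ± 0.08. The tight junction claudin Cldn4 was at 8.96 and 8.98 in DMSO and 9.48 and 9.55 with CSA and rose by 0.55 ± 0.10, far below its mean of 11.67 in DMSO at day 6. Occludin, Ocln, was at 8.31 and 8.73 in DMSO and 9.13 and 9.27 with CSA and rose by 0.68 ± 0.14. E-cadherin, Cdh1, was at 12.52 and 12.52 in DMSO and 12.76 and 12.85 with CSA and rose by 0.29 ± 0.07 (adjusted p = 0.0192). The calls ended without CSA replicate 2 (adjusted p = 0.0903) for Ocln, without CSA replicate 2 (adjusted p = 0.0509) for Cldn4 and without DMSO replicate 1 or 2 (adjusted p = 0.0608 or 0.0673) and without CSA replicate 1 or 2 (adjusted p = 0.0622 or 0.157) for Cdh1. Without the trend 2 of the 10 passed, Dsg2 and Dsc2, and 6 and 4 did without CSA replicate 1 and 2.

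Keratins went both ways, and some epithelial regulators rose. Of 14 tested keratins 5 rose (35.7%, against 7.14% of all genes) and 2 fell (14.3%, against 5.52%). Krt17, a keratin of stressed and basal epithelium, was at 9.15 and 9.73 in DMSO and 10.71 and 10.80 with CSA and rose by 1.32 ± 0.15 (adjusted p = 0.000379), and Krt16 was at 11.43 and 11.38 in DMSO and 12.12 and 12.06 with CSA and rose by 0.69 ± 0.07. Krt14 of basal epithelium rose by 0.63 ± 0.08. Krt19 of simple epithelium was at 10.93 and 11.22 in DMSO and 10.36 and 10.16 with CSA (-0.81 ± 0.11, adjusted p = 0.00107). Krt8, a simple-epithelial keratin, was bright, at 13.66 and 13.78 in DMSO and 14.09 and 14.04 with CSA, and rose by 0.34 ± 0.06, a call lost without CSA replicate 1 (adjusted p = 0.0683). Of 18 transcription and splicing factors and matriptase genes 6 rose (33.3%) and 1 fell (5.56%, near the share of all genes). Of these, 2 of the rises and the fall were at least 2-fold. The ETS factor Ehf was at 8.06 and 8.16 in DMSO and 9.17 and 9.44 with CSA and rose by 1.19 ± 0.13 (adjusted p = 0.000256), the matriptase gene St14 was at 9.95 and 9.76 in DMSO and 10.49 and 10.42 with CSA and rose by 0.60 ± 0.09, and the epithelial sorting adaptor Ap1m2 rose by 0.70 ± 0.11. Transglutaminase Tgm1 of the cornified envelope was at 10.52 and 10.43 in DMSO and 9.75 and 9.58 with CSA (-0.81 ± 0.09, adjusted p = 0.000462), 1 of 2 genes of its list of 23 that passed. Without the trend the calls of Krt8, Krt14, Krt19, St14 and Ap1m2 ended, and with the mean of probe sets those of Krt17 (adjusted p = 0.309) and Krt14 (0.192). Leaving out CSA replicate 1 left 3 keratins and 3 regulators that rose.

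**Figure D4:**
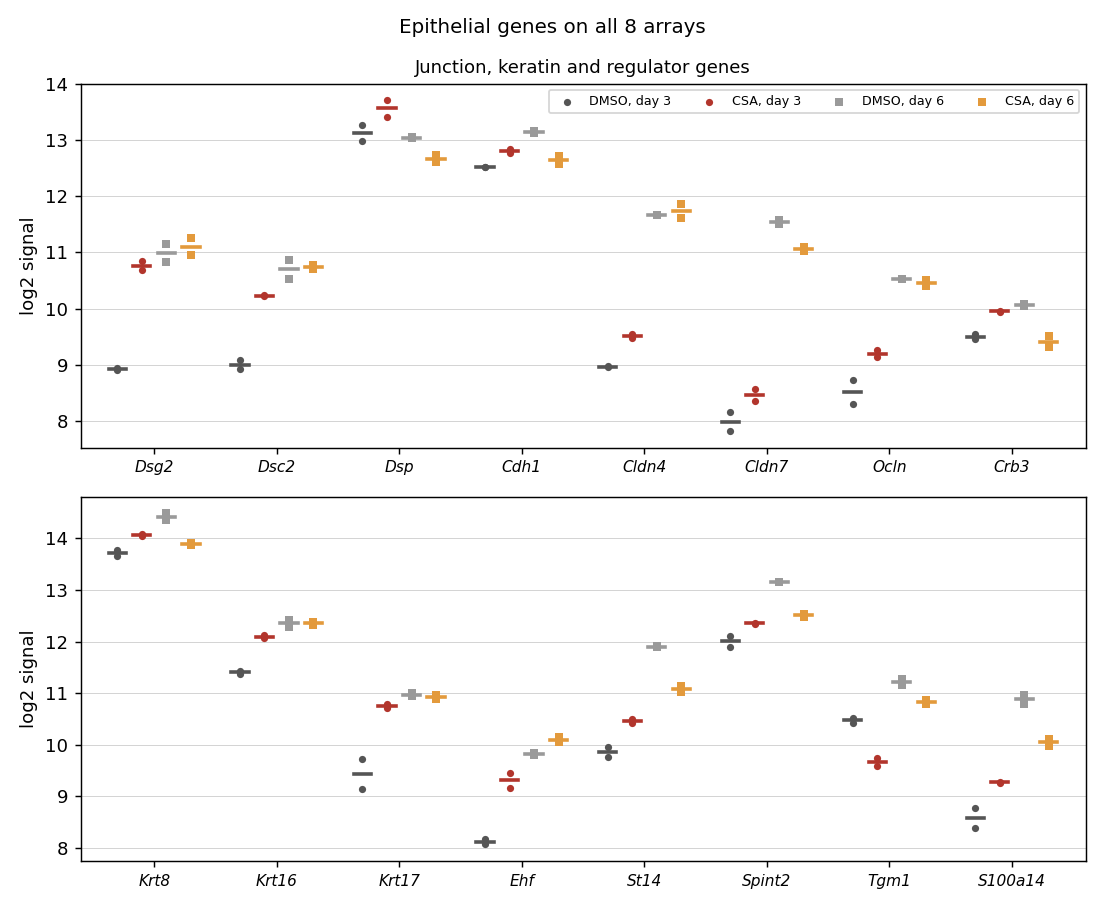
Log2 signal on all 8 arrays for 16 epithelial genes, with circles for day 3 and squares for day 6, grey for DMSO, red and orange for CSA, and a bar at each mean of 2. At day 3 the CSA points lie above the DMSO points for every gene shown except Tgm1, and at day 6 they lie below the DMSO points for 10 of the 16 genes. The genes were picked by hand, so these counts describe only the genes shown. Krt19, which fell at day 3, is not among them.

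Mesenchymal and matrix genes changed in few members. Of 21 mesenchymal transcription factors and identity genes 2 rose and 1 fell, with a median of 0.02. Of 29 collagen genes 4 rose (13.8%) and 2 fell, with 19 differences above 0 and a median of 0.21, and of 29 other matrix genes 3 rose and 1 fell, with a median of 0.08. Collagen chain Col1a2 was at 11.30 and 11.23 in DMSO and 11.98 and 11.94 with CSA and rose by 0.70 ± 0.06 (adjusted p = 8.79e-05), fibronectin Fn1 was at 10.67 and 10.50 in DMSO and 11.32 and 11.28 with CSA and rose by 0.71 ± 0.07, and Col6a1 was at 10.82 and 10.68 in DMSO and 9.995 and 10.07 with CSA (-0.72 ± 0.09, adjusted p = 0.000779). The proteoglycan Dcn changed by -0.22 ± 0.06 (adjusted p = 0.0411), a call lost without DMSO replicate 1 (adjusted p = 0.181) and without CSA replicate 1 or 2 (adjusted p = 0.209 or 0.141). N-cadherin Cdh2 was at 10.97 and 11.14 in DMSO and 11.12 and 11.15 with CSA (adjusted p = 0.618), the surface marker Thy1 at 8.58 and 8.46 in DMSO and 8.63 and 8.81 with CSA (adjusted p = 0.332) and vimentin, Vim, at 14.59 and 14.49 in DMSO and 14.40 and 14.30 with CSA (adjusted p = 0.115), none past the threshold, while the other 2 probe sets of Vim fell, by -0.29 ± 0.06 (adjusted p = 0.00711) and -0.29 ± 0.06 (adjusted p = 0.0108). The call of Col1a2 ended with the mean of its probe sets (adjusted p = 0.143), and without the trend that of Dcn ended. Dcn also failed to pass without a filter on low signals, under quantile normalization, with the 4 arrays of day 3 alone, with the mean of its probe sets and without either DMSO array of day 6 (adjusted p between 0.0586 and 0.129). Leaving out each day 3 array in turn left 1 to 3 collagen genes and 1 to 3 other matrix genes that rose.

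Secreted and signalling genes changed singly. The chemokine Ccl2, which draws monocytes, was at 9.31 and 9.29 in DMSO and 8.29 and 8.04 with CSA (-1.14 ± 0.16, adjusted p = 0.00155), and its neighbour in family Ccl7 at 9.65 and 9.78 in DMSO and 8.81 and 8.94 with CSA (-0.84 ± 0.14). Vascular endothelial growth factor Vegfa, also an ATF4 target, was at 7.75 and 7.61 in DMSO and 9.05 and 8.96 with CSA and rose by 1.33 ± 0.15 (adjusted p = 0.000451). The activin antagonist Fst was at 10.65 and 10.56 in DMSO and 9.85 and 9.94 with CSA (-0.71 ± 0.10, adjusted p = 0.0011) and the inhibitory Smad6 at 9.46 and 9.50 in DMSO and 10.20 and 10.27 with CSA (0.75 ± 0.12). Among 22 genes of ERK feedback and EGF ligands 5 fell (22.7%, against 5.52% of all genes) and 1 rose (4.55%, against 7.14%). Their ETS factor Etv4 was at 7.79 and 7.98 in DMSO and 6.73 and 6.35 with CSA (-1.35 ± 0.26, adjusted p = 0.00803), a call lost without DMSO replicate 2 (adjusted p = 0.052) and without CSA replicate 2 (adjusted p = 0.0677). Of 24 AP-1 and immediate-early genes 4 rose and 2 fell, and 1 to 3 rises were left without 1 of the day 3 arrays. Klf6, a zinc finger factor, rose by 0.78 ± 0.09 and Myc, which is also a transgene here, was at 11.16 and 11.17 in DMSO and 10.88 and 10.71 with CSA (-0.37 ± 0.08, adjusted p = 0.0153), a call lost without DMSO replicate 1 or 2 (adjusted p = 0.0536 or 0.0579) and without CSA replicate 2 (adjusted p = 0.144). Without the trend the calls of Ccl7, Smad6, Etv4 and Myc ended. Leaving out each day 3 array in turn left 0 to 3 of the 5 falls among ERK feedback genes, with 0 without CSA replicate 2.

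Glucose use and heat shock genes were lower in part. Of 26 genes of glycolysis and the hypoxia response 6 fell (23.1%, against 5.52% of all genes) and 2 rose (7.69%, near the 7.14% of all genes). The muscle enolase Eno3 was at 11.98 and 11.95 in DMSO and 10.55 and 10.60 with CSA (-1.39 ± 0.09, adjusted p = 6.11e-06) and the glucose transporter Slc2a1 at 11.48 and 11.63 in DMSO and 10.73 and 10.71 with CSA (-0.84 ± 0.07, adjusted p = 7.71e-05). The 2 that rose were Vegfa and Ndrg1, a stress-induced gene of the list, at 11.66 and 11.69 in DMSO and 12.41 and 12.35 with CSA (0.70 ± 0.07). The gluconeogenic enzyme Fbp2 was at 9.38 and 9.30 in DMSO and 8.17 and 7.96 with CSA (-1.27 ± 0.13), while Pck2, the mitochondrial enzyme that makes phosphoenolpyruvate, rose by 2.22 ± 0.12. Of 20 cytosolic and mitochondrial heat shock genes 6 fell (30.0%) and none rose (2 higher at an unadjusted p under 0.05). The small heat shock protein Hspb1 was at 13.16 and 13.03 in DMSO and 12.65 and 12.63 with CSA (-0.45 ± 0.07), the co-chaperone Hsph1 at 11.95 and 11.92 in DMSO and 11.48 and 11.49 with CSA (-0.45 ± 0.08) and Cryab at 13.79 and 13.84 in DMSO and 13.46 and 13.47 with CSA (-0.35 ± 0.06). Of 32 proteasome subunits 5 fell (15.6%) and none rose, 31 of 32 differences were below 0, and the median was -0.14. Without the trend the calls of all 6 heat shock genes and all 5 proteasome subunits ended, and leaving out each day 3 array in turn left 3 to 5 and 1 to 3 of them.

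Among 47 subunits of oxidative phosphorylation 1 rose and 3 fell, of which none fell without any 1 of the day 3 arrays, and among 34 genes of ribosome biogenesis 3 fell and none rose (1 higher and 16 lower at an unadjusted p under 0.05). Of 20 cholesterol genes 3 rose and 2 fell, and of 22 genes of fatty acid synthesis and storage 5 rose and none fell (1 lower at an unadjusted p under 0.05). Without CSA replicate 1 none of these 5 held, and without CSA replicate 2 none of the 3 cholesterol genes. Of 24 Hox genes limma called 0, with 5 at an unadjusted p under 0.05.

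The pathway that CSA inhibits was read from its own genes. Rcan1, a calcineurin brake that NFAT induces, was at 11.98 and 12.01 in DMSO and 11.97 and 11.99 with CSA (-0.02 ± 0.07, adjusted p = 0.919), and the treatments overlapped. The catalytic subunit Ppp3ca was at 10.88 and 10.87 in DMSO and 11.17 and 11.05 with CSA (adjusted p = 0.0751), while its probe set next in brightness rose by 0.32 ± 0.09 (adjusted p = 0.0407), and Ppp3cb and Ppp3r1 differed by 0.11 ± 0.11 and -0.15 ± 0.07 without passing. Of the NFAT factors, Nfatc3 was at 9.68 and 9.51 in DMSO and 10.04 and 9.98 with CSA and rose by 0.41 ± 0.10 (adjusted p = 0.0256), a call lost without DMSO replicate 2 (adjusted p = 0.129) and without CSA replicate 1 or 2 (adjusted p = 0.153 or 0.102), also under quantile normalization (adjusted p = 0.0631) and without the trend. Nfatc1, Nfatc2 and Nfatc4 differed by 0.14 ± 0.17, 0.29 ± 0.23 and -0.14 ± 0.11 and did not pass. The other tested probe sets of Nfatc1 were at -0.46, -0.64, -0.01 and -1.18, and those of Nfatc2 ranged from -0.45 to 1.49, none past the threshold. Nfat5, the factor of the family that answers osmotic stress and lacks a calcineurin docking site, was at 8.79 and 8.69 in DMSO and 9.39 and 9.59 with CSA and rose by 0.75 ± 0.12 (adjusted p = 0.00256). The related brake Rcan2 changed by -0.37 ± 0.10 (adjusted p = 0.0401), a call lost in turn without each array of day 3 (adjusted p from 0.06 to 0.172), without a DMSO array of day 6, without a filter, with the arrays of day 3 alone and with the mean of its probe sets. In the whole list of 20 tested subunits, factors and brakes 4 rose and 2 fell. With ambiguous probe sets left out Nfat5 was at -0.25 and did not pass, and the mean of its probe sets ended the call as well (adjusted p = 0.317). Without the trend none of these 6 calls held, and leaving out each day 3 array in turn left 1 to 3 rises and 0 falls. Of 12 cyclophilins limma called 0, with 2 at an unadjusted p under 0.05.

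Reprogramming genes were read next. Oct4, Pou5f1, was at 9.18 and 8.58 in DMSO and 9.53 and 9.21 with CSA (0.49 ± 0.18, adjusted p = 0.13) and did not pass. The brightest probe set of Klf4 was at 9.82 and 9.84 in DMSO and 9.83 and 9.91 with CSA (adjusted p = 0.881), while its other probe set rose by 0.46 ± 0.10 (adjusted p = 0.0175). Sox2 was too dim to test, at 5.59 and 5.30 in DMSO and 5.13 and 3.87 with CSA. Endogenous and transgenic copies were not told apart by these probe sets. Alkaline phosphatase Alpl, an early marker of reprogramming, was at 6.62 and 6.57 in DMSO and 8.38 and 8.65 with CSA, so that both CSA arrays lay above both DMSO arrays (1.92 ± 0.29, adjusted p = 0.00217), and the surface protein Cd34 rose by 0.80 ± 0.13. Of 18 tested genes of the pluripotency network 4 fell (22.2%, against 5.52% of all genes) and none rose (3 higher at an unadjusted p under 0.05). Among the 4 was the retrotransposon-derived L1td1, at 12.79 and 12.60 in DMSO and 12.26 and 12.24 with CSA (-0.45 ± 0.07). Without the trend all 4 of these calls and that of Cd34 ended, and leaving out each day 3 array in turn left 1 or 2 of the 4.

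The largest changes among genes with a mean log2 signal of at least 7 in both groups included many genes outside the lists. Niban1, which is phosphorylated in stress and dampens translation control, was at 8.28 and 8.33 in DMSO and 10.65 and 10.68 with CSA and rose by 2.36 ± 0.11 (adjusted p = 9.76e-07). The ankyrin Ank2 was at 7.40 and 7.62 in DMSO and 9.70 and 9.83 with CSA (2.25 ± 0.15), Pck2 at 8.38 and 8.65 in DMSO and 10.74 and 10.73 with CSA (2.22 ± 0.12) and the nucleosome assembly family member Tspyl4 at 7.98 and 7.86 in DMSO and 9.92 and 9.70 with CSA (1.90 ± 0.15). Tsc22d3, the glucocorticoid-induced leucine zipper gene, rose by 1.82 ± 0.21, and Fbxo42 by 2.10 ± 0.50, with DMSO arrays far apart at 6.47 and 8.80 in DMSO and 9.83 and 9.63 with CSA. With Atf5, Trib3, Chac1, Gpt2, Slc7a3 and Dsg2 these made up the 12 largest rises. The call of Fbxo42 ended without CSA replicate 1 or 2 (adjusted p = 0.131 or 0.102), without the trend and with the mean of its probe sets. Tsc22d3 was at 0.13 and did not pass when ambiguous probe sets were left out.

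The 12 largest falls of this kind were led by 4930550L24Rik, at 9.11 and 9.16 in DMSO and 7.56 and 7.60 with CSA (-1.56 ± 0.17, adjusted p = 0.00028). P4htm, a prolyl hydroxylase of the ER membrane, was at 9.56 and 9.57 in DMSO and 8.02 and 8.20 with CSA (-1.46 ± 0.24), and Ptprz1, a receptor phosphatase, at 8.90 and 8.84 in DMSO and 7.11 and 8.03 with CSA (-1.30 ± 0.23). The annexin Anxa10 changed by -1.28 ± 0.16, the neuronal protein gene Nrep by -1.14 ± 0.13, the acyl-CoA synthetase Acsl6 by -1.11 ± 0.19, the TNF receptor family member Cd40 by -1.11 ± 0.22, Tsga8 by -1.21 ± 0.26 and the ribosomal protein gene Rps27 by -1.14 ± 0.21, and Eno3, Fbp2 and Ccl2 complete the 12. In each the CSA arrays lay below the DMSO arrays. Calls ended without DMSO replicate 1 (adjusted p = 0.0518) and without CSA replicate 2 (adjusted p = 0.0898) for Cd40, without DMSO replicate 2 (adjusted p = 0.109) and without CSA replicate 1 or 2 (adjusted p = 0.0624 or 0.102) for Tsga8 and without CSA replicate 2 (adjusted p = 0.0603) for Rps27. Without the trend the calls of P4htm, Ptprz1, Acsl6, Cd40, Tsga8 and Rps27 ended. P4htm was at -0.38 and did not pass when ambiguous probe sets were left out. Ribosomal protein genes such as Rps27 have near-identical copies in the genome, and its value is uncertain for that reason.

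The CSA effect of day 3 was set against that of day 6, which rests on 4 other arrays. At day 6 CSA raised 803 genes (6.41%) and lowered 766 (6.11%). Of the 895 genes that rose at day 3, 259 (28.9%) also rose at day 6, where they made up 32.3% of the rises, and of the 692 that fell 162 (23.4%) also fell, 21.1% of the falls. The difference between the days itself passed for 726 genes (5.79%), 430 with the higher difference at day 3 (3.43%) and 296 with the lower (2.36%). It passed for 252 of the genes that rose at day 3 (28.2%), in 238 of them with the larger rise at day 3, and for 136 of those that fell (19.7%), in 129 with the larger fall. Since these genes were chosen for passing at day 3, that contrast is favoured by their choice. The count of 726 fell to 256 and 264 without CSA replicate 1 and 2 of the earlier day, to 337 and 274 without DMSO replicate 1 or 2 of day 6 and to 374 without CSA replicate 2 of day 6. Without the trend limma called 0 genes for this difference, with 2246 at an unadjusted p under 0.05, against 2856 with the trend.

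Stress genes kept their rise at day 6 in part. Of the 16 ATF4 and CHOP genes that rose, Atf5 was at 2.06, Trib3 at 1.79, Chac1 at 1.91, Ddit3 at 1.94 and Nupr1 at 1.31 in the day 6 difference. Others did not keep it: Cebpg was at -0.03 at day 6, with a difference between days of 0.72. In the list 9 rose at day 6, with a median of 0.23, and the difference between the days passed for 2 of 22. Amino acid synthesis showed single genes with a larger rise at day 3: Gpt2 was at 0.05 at day 6 (difference between days 1.82 ± 0.14), Cth at -0.05 (0.67 ± 0.08) and Aldh1l2 at 1.98 (1.94 ± 0.19). Lysosomal genes rose at both days, 13 and 12 of 29, and Ctsk rose by 1.51 ± 0.10 at day 6.

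The fall of cell cycle genes was larger at day 3. Of the replication list 4 of 43 fell at day 6, a share of 9.3% near the 6.11% of all genes, with a median of -0.13, and of the mitosis list 8 of 46, with a median of -0.21. The difference between the days passed for 9 and 11 of them, all with the lower value at day 3. Mcm5 averaged 12.21 in DMSO and 11.24 with CSA at day 3 and 11.08 and 11.08 at day 6, a difference between days of -0.97 ± 0.10. Aurka averaged 11.59 and 10.52 at day 3 and 10.57 and 10.24 at day 6 (-0.74 ± 0.13). Of the 59 genes of both lists that fell at day 3, the CSA mean of day 3 was lower than the DMSO mean of day 6 in 44, with a median gap of -0.19. These genes were chosen for a lower CSA signal at day 3, which favours that count, and the gap was not tested.

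Epithelial genes differed in direction. In the junction list 10 of 27 rose and 1 fell at day 3, and 2 rose and 7 fell at day 6, with medians of 0.38 and -0.34, and the difference between days passed for 8, all higher at day 3. Cdh1 rose at day 3 and fell by 0.50 ± 0.07 at day 6 (difference 0.79 ± 0.09), St14 fell by 0.83 ± 0.09 (difference 1.43 ± 0.13) and Krt8 by 0.53 ± 0.06 (difference 0.87 ± 0.09). The large plakin gene Eppk1 went from a rise of 0.74 ± 0.12 to a fall of 0.85 ± 0.12 (difference 1.58 ± 0.16). In all, 53 of the 895 genes that rose at day 3 fell at day 6, where 6.11% of all genes fell. Of the 692 that fell at day 3, 15 rose at day 6, where 6.41% of all genes rose. Ccl2 was among the latter, rising by 0.58 ± 0.16 at day 6 (difference -1.72 ± 0.23), as was the small heat shock gene Cryab, by 0.48 ± 0.06 (difference -0.83 ± 0.09). Contractile smooth muscle genes, of which 8 of 13 rose at day 6, had 1 that fell and none that rose at day 3 by limma, with 3 at an unadjusted p under 0.05, and the difference between days passed for 9. Without the trend the day 3 call of Eppk1 ended.

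Among bright genes past the threshold at day 3, the widest gaps between days were those of Ak5, Tcl1b3, Mal2, Cdcp1 and Gpt2 on the higher side. The adenylate kinase Ak5 was at 7.92 and 8.20 in DMSO and 8.93 and 9.19 with CSA at day 3 (0.999 ± 0.16) and -1.004 ± 0.16 at day 6 (difference 2.003 ± 0.23). The difference was 1.85 ± 0.23 for Mal2, a sorting protein of polarised epithelium, 1.84 ± 0.29 for the membrane protein Cdcp1 and 1.93 ± 0.39 for Tcl1b3. On the lower side stood Chrdl1, Ccl2, Cnfn, Ercc4 and Gm41724. The BMP antagonist Chrdl1 differed by -0.63 ± 0.17 at day 3 and 1.22 ± 0.17 at day 6 (difference -1.84 ± 0.24), and the difference was -1.74 ± 0.26 for cornifelin, Cnfn, -1.28 ± 0.23 for the repair nuclease Ercc4 and -1.24 ± 0.13 for Gm41724, which rose at both days. Day 3 calls ended without DMSO replicate 1 (adjusted p = 0.174) and without CSA replicate 1 or 2 (adjusted p = 0.147 or 0.137) for Tcl1b3, without DMSO replicate 2 (adjusted p = 0.205) and without CSA replicate 1 or 2 (adjusted p = 0.139 or 0.163) for Cnfn, without DMSO replicate 2 (adjusted p = 0.0677) and without CSA replicate 2 (adjusted p = 0.0901) for Ercc4 and without DMSO replicate 1 or 2 (adjusted p = 0.141 or 0.131) and without CSA replicate 1 or 2 (adjusted p = 0.161 or 0.177) for Chrdl1; the last turned to 0.08 with the mean of its probe sets, and also ended without a filter on low signals (adjusted p = 0.0627) and with the replicate number as a block (adjusted p = 0.0502). The call of Ercc4 ended with the mean of its probe sets (adjusted p = 0.228) and that of Tcl1b3 under quantile normalization (adjusted p = 0.0569). Without the trend the calls of Tcl1b3, Cdcp1, Cnfn, Ercc4 and Gm41724 ended.

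**Figure D5:**
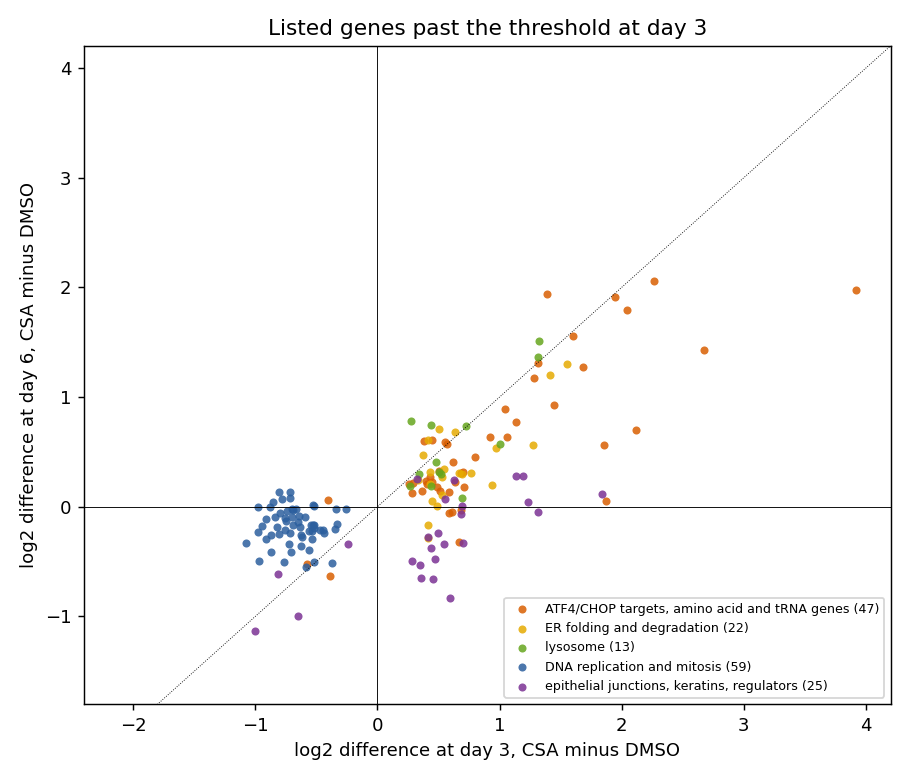
Log2 difference of CSA minus DMSO at day 3 (horizontal) and day 6 (vertical) for genes of 5 groups of lists that passed at day 3, which share no array between axes, with a dotted line where both are equal. Replication and mitosis genes lie left of 0 and mostly above the dotted line, stress genes lie mostly to the right and above 0, and most epithelial genes lie to the right, on both sides of 0 on the vertical axis.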

How the data were processed

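The authors deposited log2 signals of Affymetrix 3' arrays for 45037 probe sets and 8 arrays, made with MAS5 per the submitters' processing notes; its version is not given in the sources used here. Trimmed means of the linear signal (2% at each end) of 496.6 to 497.3 show that every array was scaled to a common level. Probe sets were named through the platform annotation: 34945 had 1 gene symbol, 932 several and 9160 none, and only the first kind was read as a gene. Between 110 and 259 values per array were at 0. Depth is not defined for arrays, whose number limits the precision.

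A probe set was tested if its mean over the 8 arrays reached the 40th percentile, a log2 signal of 5.37, which left 27022. limma 3.58.1 in R 4.3.3 was fitted with 1 mean per group on all 8 arrays, so that the 4 groups shared an estimate of the spread with 4 residual degrees of freedom, and eBayes was run with an intensity trend. Tests were two-sided with Benjamini-Hochberg adjustment over all tested probe sets and a threshold of 0.05. Each gene was read from the brightest of its tested probe sets, which gave 12529 genes. The code was tested on simulated data. Whether separate cultures underlie the repeats is not stated beyond the word biological, so p-values measure the spread between these arrays.

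Genes were named by 4 rules: the 12 largest rises and falls with a mean signal of at least 7 in both groups and no overlap, up to 6 members per list with the smallest p, a fixed set of reprogramming and calcineurin genes, and the 5 widest gaps between days in each direction. Other names, such as Atf4, Cebpg, Ddit3, Hspa5, E2f1, Mbp, Kif11 and Eppk1, were chosen after their values were seen. The members, lists and markers were chosen with earlier results of these data known, so lists are described by counts and medians beside those of all genes and carry no test. Promoters came from RefSeq, build GRCm38.p6. Alternatives varied the filter, the trend, normalization, a floor and a pseudocount (0 in the fit reported), the arrays fitted, a replicate block, ambiguous probe sets and the probe set of a gene. Ambiguous probe sets were those with names ending in _a_at, _s_at or _x_at, and these endings were not told apart. A gene with no other tested probe set, such as Atf5, could not be read in that setting.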

Additional observations from a re-analysis of the deposited data

Results flagged for a closer look

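For 68 of the genes named, the CSA effect at day 3 differed from that at day 6, tested as the day 3 log2 difference minus the day 6 one by limma with Benjamini-Hochberg adjustment. The value was above 0 in 40 and below 0 in 28. No array is shared between the days, and groups of 2 arrays allow no search for a single deviating array. Without the trend none of these differences passed, and most genes were chosen for passing at day 3. 

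Among genes of the amino acid, ATF4 and ER lists the difference was 1.94 for Aldh1l2, 1.82 for Gpt2, 1.29 for Slc7a3, 0.64 for Slc7a1, 0.72 for Cebpg and 0.67 for Cth. It was also 0.53 for Aldh18a1, 0.41 for Lars, 0.74 for Atf6, 0.71 for Ero1a and 0.40 for Xbp1. In genes of glycolysis and the hypoxia response it was 1.31 for Vegfa and 0.84 for Ndrg1. In epithelial genes, 3 of which (Eppk1, Cdcp1 and Mal2) are in no list, it was 1.72 for Dsg2, 1.18 for Dsc2, 1.58 for Eppk1, 1.43 for St14, 1.36 for Krt17, 1.03 for Ap1m2, 0.91 for Ehf and 0.87 for Krt8. It was also 0.79 for Cdh1, 0.74 for Pkp1, 0.68 for Krt16, 1.84 for Cdcp1 and 1.85 for Mal2. In genes of DNA replication it was -0.97 for Mcm5, -0.80 for Dut, -0.67 for Prim1, -0.65 for Mcm2, -0.65 for Mcm4, -0.55 for Mcm3, -0.55 for Rrm1 and -0.52 for Mcm7. In genes of the G2 phase and mitosis it was -0.89 for Kif20a, -0.74 for Aurka, -0.74 for Ckap2, -0.74 for Kif23, -0.66 for Birc5, -0.63 for Plk1 and -0.61 for Cdk1. In mesenchymal and matrix genes it was 0.88 for Col1a2, 0.54 for Fn1, -1.05 for Cdh2 and -0.55 for Vim. In chemokine, heat shock and metallothionein genes it was -1.72 for Ccl2, -0.98 for Ccl7, -0.83 for Cryab, -0.48 for Hsph1 and -0.61 for Mt1. Outside these groups it was higher at day 3 by 2.04 for Alpl, 2.003 for Ak5, 1.64 for Pck2, 1.28 for Niban1, 0.92 for Tet2, 1.93 for Tcl1b3, 1.56 for Pou5f1, 1.54 for Acsl6, 0.92 for Tspyl4, 0.73 for Mbp, 0.91 for Ank2 and 0.79 for Igf2r. Outside these groups the lower values at day 3 were -1.10 for Cdkn2a, -1.07 for Anxa10, -1.24 for Gm41724, -1.28 for Ercc4, -1.74 for Cnfn and -1.84 for Chrdl1.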

How the results depend on the processing

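The number of arrays limits all of these results. Fewest genes passed by limma, 274 at day 3 and 0 for the difference between days (2246 at an unadjusted p under 0.05), without the intensity trend in the variance prior, where 4 cytosolic tRNA synthetases, 9 ATF4 and CHOP genes and 4 genes of ER degradation rose and 10 replication and 8 mitosis genes fell. Leaving out 1 of the 8 arrays in turn gave 643 to 1627 genes at day 3, 256 to 610 for the difference between days and 7 to 13 ER degradation genes that rose, with a lone array assumed to vary like the other groups. Other settings kept these counts within 1.5 times the reported ones: 1359 genes at day 3 without a filter on low signals, 1838 with a filter at the 60th percentile, 1379 after quantile normalization, 1671 when signals under a log2 of 5 were raised to 5, 1649 with a pseudocount of 32, 1482 with the 4 arrays of day 3 alone, 1268 without ambiguous probe sets and 1456 when all probe sets of a gene were averaged. Like counts did not mean the same genes. Of the 1587 genes, 1131 were shared when probe sets were averaged and 1193 without ambiguous probe sets. Several tested probe sets were present for 935 of the 1587. For 369 of these another probe set passed in the same direction, and for 4 in the opposite one. All other probe sets had the same sign in 716. Without its ambiguous probe sets Nfat5 turned to -0.25, and averaged over its probe sets Chrdl1 turned to 0.081. Of 150 named genes past the threshold, 78 lost their call under at least 1 setting, 68 of them without the trend and 25 without some 1 day 3 array. The cause was not tested.

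The replicate numbers did not pair the arrays: the deviations of same-numbered arrays from their group means had correlations of -0.003 to 0.034 between groups. With the replicate number as a block 1657 genes passed at day 3 and 771 for the difference between days.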

Other observations

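Some antioxidant genes rose at day 3. Of 23 tested genes of the NRF2 response and metallothioneins 5 rose (21.7%, against 7.14% of all genes) and 2 fell (8.70%, against 5.52%), with a median of 0.09. The metallothioneins Mt1 and Mt2, which bind zinc and copper, were at 12.66 and 12.79 in DMSO and 13.17 and 13.19 with CSA and at 12.27 and 12.59 in DMSO and 12.80 and 12.94 with CSA. Both CSA arrays lay above both DMSO arrays in each, and the rises were 0.45 ± 0.07 (adjusted p = 0.00325) and 0.44 ± 0.10 (adjusted p = 0.0148). The peroxiredoxin reductase Srxn1 was at 9.43 and 9.40 in DMSO and 9.98 and 10.06 with CSA and rose by 0.60 ± 0.11. At day 6 the 3 genes differed by 1.06, 0.61 and 0.90, and the difference between days passed for Mt1 (-0.61 ± 0.10). The calls of all 3 ended without the trend (adjusted p between 0.0593 and 0.163). That of Mt2 also ended without DMSO replicate 1, at a difference of 0.28, and without CSA replicate 2, at 0.37. That of Srxn1 ended without CSA replicate 2, at 0.56. Mt1 was at 0.21 and did not pass when ambiguous probe sets were left out.

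The receptor Igf2r, which clears the growth factor IGF2, was at 10.99 and 11.05 in DMSO and 11.70 and 11.66 with CSA and rose by 0.66 ± 0.10 (adjusted p = 0.00231), and the difference from day 6 passed (0.79 ± 0.14). It was 1 of 16 imprinted genes, of which 2 rose and 2 fell, and its call ended without the trend (adjusted p = 0.0818). The procollagen proteinase Bmp1 was at 6.41 and 7.22 in DMSO and 8.32 and 8.17 with CSA and rose by 1.43 ± 0.27, a call lost without CSA replicate 1 (adjusted p = 0.0619) and without the trend (adjusted p = 0.0912). Of the 25 genes of TGF-beta and BMP signalling it belongs to, 4 rose and 2 fell.

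The remaining lists held few changed genes. Of 20 chemokine and cytokine genes 2 rose and 2 fell, as did 2 and 2 of 22 ABC transporters. By limma 1 of 21 Wnt genes fell and none rose, with 3 higher at an unadjusted p under 0.05. Of 18 interferon response genes 1 rose and none fell, with 1 lower at an unadjusted p under 0.05. Of 16 surface and enzyme markers of early reprogramming 3 rose and none fell, with 2 lower at an unadjusted p under 0.05. In each of the lists of 14 metalloproteinases and inhibitors and of 5 histone genes 1 rose and none fell, with 0 lower at an unadjusted p under 0.05. Without the trend 1 chemokine and 1 early reprogramming gene rose, 1 chemokine fell, and no other call of these 7 lists was left.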
